A study of Mus musculus with 6 samples.

Results

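The 8 genes described here encode proteins that bind cytokine mRNAs and set how long they last: Zfp36, Zfp36l1, Zfp36l2, Zc3h12a, Zc3h12c, Rc3h1, Elavl1 and Khsrp. They were taken by symbol from the deposited table of 55401 mouse genes. All 8 were among the 15272 genes that passed the filter on low counts, with between 366 and 8314 reads in any library. RNA-seq had been run on 3 samples treated with NETs (neutrophil extracellular traps, in which neutrophils cast out chromatin decorated with granule enzymes; called NETs-treated) and on 3 unexposed samples (control). All 6 samples were of WT genotype. The labels conflict on the cells: the cell type field says BMDM (macrophages grown from bone marrow), but every title bears BV2, a mouse microglial line. How much NETs was given and for how long, and whether each sample was its own culture, is not stated in the sources used here. All p-values therefore rest on the spread among 6 samples that may be technical repeats.

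Many mRNAs of cytokines and immediate early genes carry AU-rich elements or small stem-loops in the 3′ untranslated region (UTR). Zfp36 (tristetraprolin, TTP) and its paralogs Zfp36l1 and Zfp36l2 bind AU-rich elements through paired zinc fingers and bring the CCR4-NOT deadenylase to the mRNA. Khsrp (KSRP) also binds such elements and promotes decay, while Elavl1 (HuR) binds AU- and U-rich stretches and is best known for stabilising mRNAs. Zc3h12a (Regnase-1) and Zc3h12c (Regnase-3) are endonucleases of one family, and Rc3h1 (roquin-1) binds stem-loops and recruits deadenylases. In macrophages these proteins limit or extend the life of inflammatory mRNAs. A count of reads at one time point gives the amount of an mRNA, and synthesis and decay cannot be told apart in it.

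The transcripts of several of these regulators carry the AU-rich motif themselves. The motif searched was TATTTAT (7 letters, written as DNA), on the sense strand of the longest annotated 3′ UTR, with overlapping matches counted. It was present in 6 of the 8 genes, against 29.3% of the 11741 tested genes with an annotated 3′ UTR and 27.6% of all 21021 such genes. These shares, and those of higher counts below, were not matched for UTR length, and longer UTRs hold the motif more often. Tested genes with 0 copies had a median UTR of 841 bases and those with 1 copy 1844 bases. The UTRs of the 8 genes ran from 774 bases (Zfp36) to 7181 bases (Rc3h1). Below, 1 stretch per gene is shown for these mRNAs and for 4 cytokine or inflammatory targets, each holding the letters bound by TTP-type proteins. Further copies of the motif lie outside the stretch shown in all of these genes but Il1b. Capitals mark the motif, each stretch runs 5′ to 3′, and the sequences come from the GENCODE M21 transcripts (GRCm38).
Zfp36: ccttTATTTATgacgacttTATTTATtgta
Zfp36l1: ttggatTATTTATtttaga
Zfp36l2: ttaactTATTTATtatctt
Zc3h12c: aatcatTATTTATaggaac
Rc3h1: actcatTATTTATtgagat
Elavl1: aaaatTATTTATTTATTTATTTATtttta
Tnf: ttatTATTTATTTATTATTTATTTATttgc
Cxcl2: actTATTTATTTATctatgTATTTATtta
Ptgs2: tgaccaTATTTATTTATTTATgtgaag
Il1b: ttaccTATTTATTTATgTATTTATtgatt

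Elavl1 held 8 copies of the motif, 4 of them chained in the stretch printed above, which covers bases 3790 to 3818 of its UTR of 4218 bases. A count of 8 or more was found in 0.111% of tested genes. Zfp36 held 3 copies, all near the end of its UTR of 774 bases, and the stretch shown covers bases 571 to 600. Zfp36l1 and Zfp36l2 also held 3 copies each, a count of 3 or more being found in 3.82% of tested genes. Zc3h12c and Rc3h1 held 2 copies each, in UTRs of 4062 and 7181 bases. Zc3h12a and Khsrp held none in UTRs of 856 and 1642 bases, which says only that these letters are not in those windows. The longer motif TTATTTATT (9 letters, which contains the shorter one) was found 8 times in Elavl1 and 1 time each in Zfp36, Zfp36l1, Zfp36l2 and Rc3h1, against at least 1 copy in 7.98% of tested genes. Where a gene has several annotated UTRs, the median count over them was 4 for Elavl1, 1 for Rc3h1 and 0 for Zfp36l1, so the copies in Zfp36l1 lie in its longest form.

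**Figure D1:**
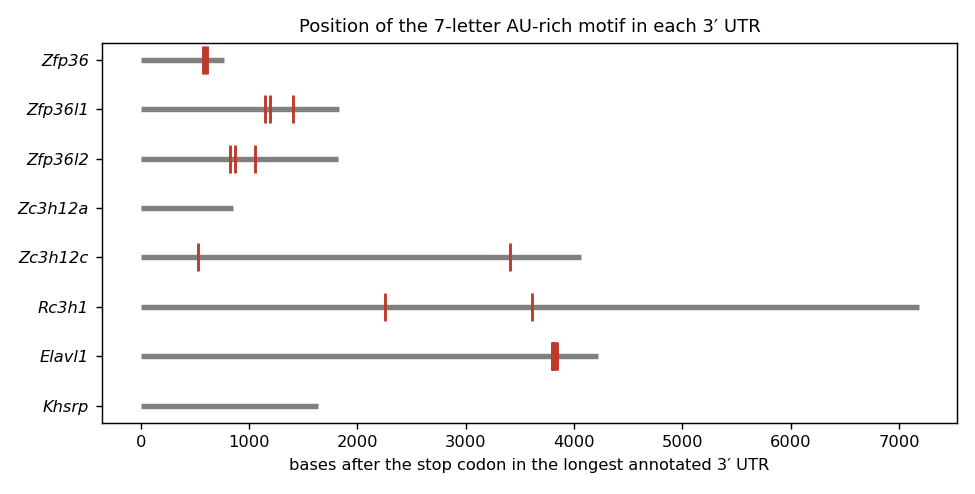
Grey lines give the longest annotated 3′ UTR of each gene in bases after the stop codon, and red ticks give each copy of the 7-letter motif. The 8 copies of Elavl1 and the 3 copies of Zfp36 lie close together near the end of the UTR, and Zc3h12a and Khsrp have none.

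The libraries held between 39994613 and 43686531 reads in NETs-treated samples and between 41830940 and 44274445 in control samples. Levels are given as CPM (the reads of a gene relative to the library total, scaled by TMM), and folds come from edgeR's quasi-likelihood test over all tested genes with Benjamini-Hochberg adjusted p. A gene is said to have risen or fallen where its adjusted p was under 0.05. The macrophage markers (8 of 8 at a mean of 1 CPM or more) summed to between 10254 and 10543 CPM in NETs-treated and between 5639 and 5812 CPM in control samples. Cd14 made up most of this difference, with a mean of 5442 CPM in NETs-treated and 691 CPM in control samples, and Lyz2 also had a higher mean. The other 6 (Mertk, Fcgr1, Csf1r, Itgam, Cd68 and Adgre1) each had a lower mean in NETs-treated samples, and summed to between 1377 and 1515 CPM in NETs-treated and between 2048 and 2077 CPM in control samples. Of 7 microglia markers 3 reached 1 CPM, their sum was 202 to 226 CPM in NETs-treated and 530 to 558 CPM in control samples, and Sall1 was at 0 in every library. Neutrophil markers summed to 9.57 to 15.1 CPM in NETs-treated and 3.81 to 5.24 CPM in control samples, mostly S100a8, with 6 of 10, among them Ly6g, Mpo and Ltf, at 0 in every library. The part of these markers in the results was not tested. In bulk samples fewer cells of a type and less RNA per cell cannot be told apart.

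Of the 8 genes, 5 passed the test. Zc3h12a, Rc3h1 and Elavl1 rose, Zfp36l1 and Zfp36l2 fell, and Zfp36, Zc3h12c and Khsrp did not pass. Over all genes, 52.7% of tested genes passed, 25.5% higher and 27.2% lower, so a share of 5 in 8 (62.5%) is close to the background. The CPM of the NETs-treated and control samples did not overlap for the same 5 genes, against 62.4% of all tested genes. The median log2 fold change was 0.17 over the 8 genes and -0.02 over all tested genes.

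**Figure D2:**
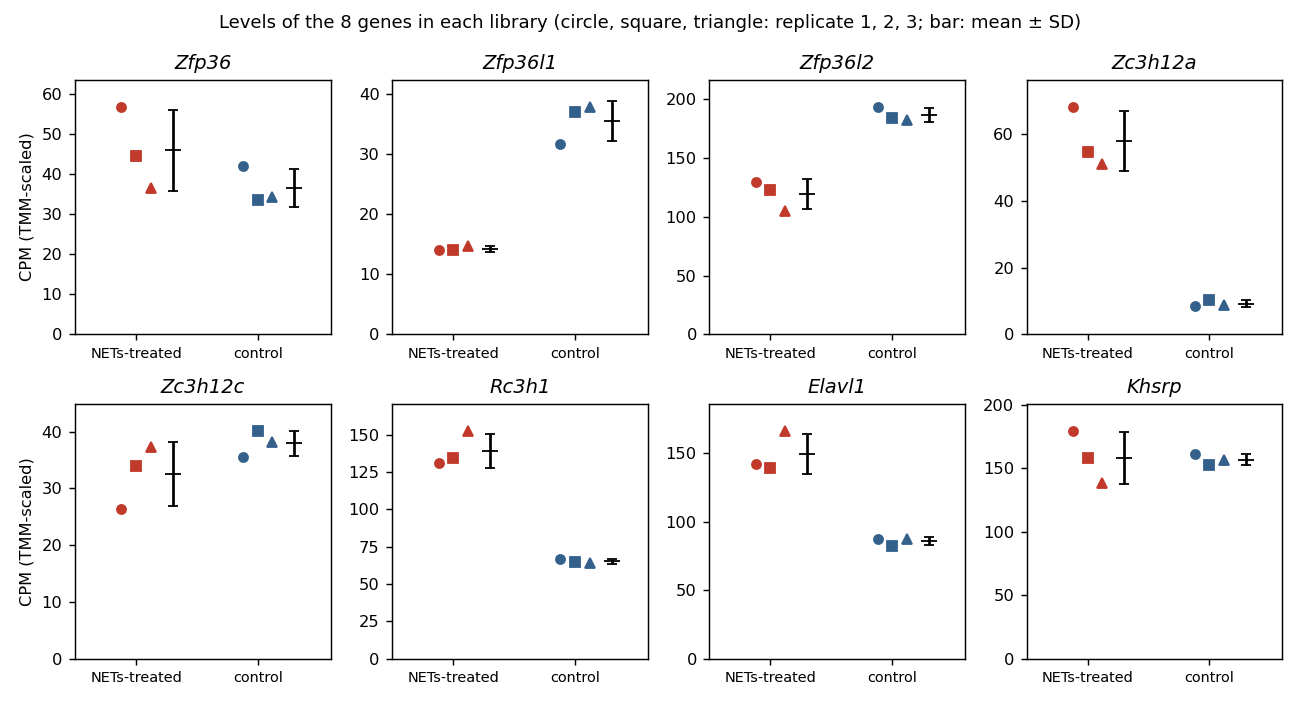
Each panel gives 1 gene, with its level in CPM on an axis from 0, a point per library (circle, square and triangle for replicates 1, 2 and 3; NETs-treated in red, control in blue) and the mean ± SD. The groups are apart for Zfp36l1, Zfp36l2, Zc3h12a, Rc3h1 and Elavl1 and overlap for Zfp36, Zc3h12c and Khsrp.

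Among the TTP family, Zfp36l1 and Zfp36l2 fell and Zfp36 did not pass the test. Zfp36l1 (ENSMUSG00000021127.7, minus strand, chr12:80107754-80113013, GRCm38) had 14.0, 14.0 and 14.8 CPM in NETs-treated samples, against 31.7, 37.0 and 37.8 CPM in control samples. All 3 NETs-treated values lay under the lowest control value. Its mean was 14.2 ± 0.466 CPM in NETs-treated and 35.5 ± 3.32 CPM in control samples (SD, n = 3 each), a log2 fold change of -1.32 ± 0.10 (SE, edgeR adjusted p = 1.74e-05), or 0.401 of the control level. Its exons, which sum to 2990 bases, overlap those of Gm26669 on the opposite strand over 1672 bases. Gm26669 is not listed in the deposited table, so its reads could not be looked at. The strand used in counting is not stated in the sources used here, and the pseudogene Zfp36l1-ps is listed at 0 counts in every library.

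Zfp36l2 (ENSMUSG00000045817.8, minus strand, chr17:84183931-84187947) had 130, 123 and 105 CPM in NETs-treated samples, against 193, 184 and 183 CPM in control samples. The groups did not overlap. The log2 fold change was -0.65 ± 0.09 (edgeR adjusted p = 0.00037), with a mean of 119 ± 12.9 CPM in NETs-treated and 187 ± 5.92 CPM in control samples.

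Zfp36 (ENSMUSG00000044786.6, minus strand, chr7:28376784-28380253), the founding member and the one best known as an immediate early gene, had 56.9, 44.6 and 36.5 CPM in NETs-treated samples, against 42.2, 33.6 and 34.3 CPM in control samples. The third NETs-treated library lay under the highest control library, so the groups overlapped. The mean was 46.0 ± 10.2 CPM in NETs-treated and 36.7 ± 4.76 CPM in control samples, and the log2 fold change of 0.33 ± 0.16 did not pass the test (edgeR adjusted p = 0.124). Its 95% interval ran from -0.05 to 0.70, a fold of 0.969 to 1.62. Without the third NETs-treated library the log2 fold change was 0.48 and passed (edgeR adjusted p = 0.0172).

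Per length of annotated exons (TPM, computed from the counts), the summed level of these 3 transcripts was 165, 148 and 130 TPM in NETs-treated samples, against 244, 234 and 234 TPM in control samples. The sum was thus lower in every NETs-treated library. TPM values here were not scaled by TMM, so a group difference in TPM is not the same as one in CPM. Khsrp, for example, had a mean of 104 TPM in NETs-treated and 114 TPM in control samples, but 158 and 157 CPM. Zfp36l2 made up most of it in both groups, with 65.3 ± 1.57% in NETs-treated and 70.2 ± 0.511% in control samples. The share of Zfp36 was 28.4, 24.5 and 23.3% in NETs-treated samples, against 15.7, 13.1 and 13.3% in control samples. The share of Zfp36l1 was 8.10, 8.91 and 10.9% in NETs-treated samples, against 13.7, 16.7 and 17.0% in control samples. Neither share overlapped between the groups. The size of each share depends on the length used, here all annotated exons.

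**Figure D3:**
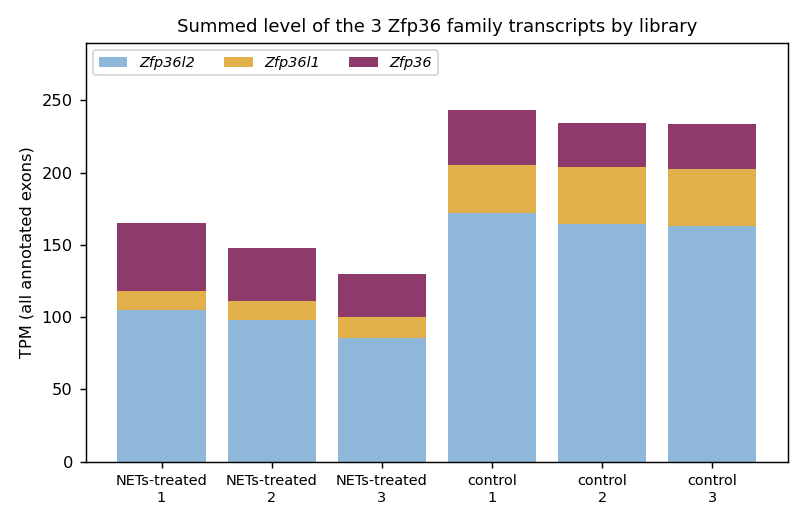
Stacked bars give the TPM (not scaled by TMM) of Zfp36l2, Zfp36l1 and Zfp36 in each library, from 0. The bars of the NETs-treated libraries reach 130 to 165 TPM and those of the control libraries 234 to 244 TPM, and the Zfp36 segment is a larger part of the NETs-treated bars.

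The balance of the paralogs was also compared as ratios within a sample, which need no scaling between libraries. The ratios here and below were not corrected for the GC trend of each library, which is described below. That trend does not cancel between genes of unlike GC content, which ran from 41.4% (Zc3h12c) to 57.3% (Khsrp). Zfp36 stood at 3.50, 2.75 and 2.13 times the level of Zfp36l1 per length in NETs-treated samples, against 1.15, 0.783 and 0.782 times in control samples. The difference was 1.62 on the log2 scale. The size of the ratio in each group depends on the length used, but the difference between the groups does not. In control samples the means were 33.3 TPM for Zfp36 and 37.4 TPM for Zfp36l1 with all annotated exons. With the longest coding transcripts they were 29.4 and 26.5 TPM, so the order in control samples is not firm. For Zfp36 over Zfp36l2 the ratios were 0.446, 0.368 and 0.354 in NETs-treated and 0.222, 0.186 and 0.191 in control samples, a difference of 0.96. Both ratios were higher in every NETs-treated sample than in any control sample. With 3 samples against 3 the exact permutation test, two-sided, cannot go below p = 0.1, which both ratios reached (p = 0.114 after adjustment over the 8 ratios compared).

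Of the Regnase family, Zc3h12a showed the largest change of the 8 genes. Zc3h12a (ENSMUSG00000042677.7, minus strand, chr4:125118423-125127840) had 68.1, 54.6 and 51.1 CPM in NETs-treated samples, against 8.51, 10.5 and 8.70 CPM in control samples. The lowest NETs-treated value was well above the highest control value. The mean was 57.9 ± 8.99 CPM in NETs-treated and 9.23 ± 1.08 CPM in control samples, a log2 fold change of 2.65 ± 0.14 (6.28-fold, edgeR adjusted p = 2.16e-06), which placed it at rank 220 from the top of 15272 tested genes. Zc3h12c (ENSMUSG00000035164.8, minus strand, chr9:52111344-52168572) had 26.4, 34.0 and 37.3 CPM in NETs-treated samples, against 35.6, 40.0 and 38.1 CPM in control samples. These overlapped, and the log2 fold change of -0.22 ± 0.13 did not pass the test (edgeR adjusted p = 0.186, 95% interval -0.52 to 0.08). Per length, Zc3h12a stood at 6.14, 3.82 and 3.25 times the level of Zc3h12c in NETs-treated samples, against 0.568, 0.621 and 0.542 times in control samples. The order of these paralogs was therefore opposite in the groups, and the ratio differed 7.36-fold (exact permutation p = 0.1, adjusted 0.114).

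Rc3h1, the roquin that shares many stem-loop targets with Regnase-1, rose as well. Rc3h1 (ENSMUSG00000040423.11, plus strand, chr1:160906418-160974978) had 131, 135 and 152 CPM in NETs-treated samples, against 66.8, 64.6 and 64.2 CPM in control samples. The groups did not overlap. The mean was 139 ± 11.3 CPM in NETs-treated and 65.2 ± 1.39 CPM in control samples, a log2 fold change of 1.10 ± 0.08 (2.14-fold, edgeR adjusted p = 1.08e-05). Per length, the ratio of Zc3h12a to Rc3h1 was 2.04, 1.59 and 1.32 in NETs-treated samples, against 0.50, 0.636 and 0.531 in control samples, with no overlap (exact permutation p = 0.1, adjusted 0.114).

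Of the AU-rich binders outside the TTP family, Elavl1 rose and Khsrp did not pass the test. Elavl1 (ENSMUSG00000040028.10, minus strand, chr8:4285382-4325413), whose 8 motif copies are described above, had 143, 139 and 166 CPM in NETs-treated samples, against 87.6, 82.5 and 87.2 CPM in control samples. No NETs-treated value reached down to a control value. The log2 fold change was 0.80 ± 0.08 (1.74-fold, edgeR adjusted p = 8.85e-05), with a mean of 149 ± 14.6 CPM in NETs-treated and 85.7 ± 2.84 CPM in control samples. Its exons share 204 bases with Ccl25 on the opposite strand, which had at most 407 counts in any library. Zfp36, Zfp36l2, Zc3h12c and Khsrp have shorter overlaps of this kind, of 63 to 125 bases, with genes that had at most 64 counts.

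Khsrp (ENSMUSG00000007670.10, minus strand, chr17:57021051-57031522) had 179, 158 and 138 CPM in NETs-treated samples, against 161, 153 and 157 CPM in control samples. The NETs-treated libraries spread on both sides of the control libraries. Its log2 fold change was 0.01 ± 0.09 (edgeR adjusted p = 0.911), with a 95% interval of the fold from 0.869 to 1.17. Per length, the decay-promoting Khsrp stood at 3.01, 2.72 and 2.00 times the level of the stabilising Elavl1 in NETs-treated samples, against 4.41, 4.45 and 4.31 times in control samples, a difference of -0.79 on the log2 scale. Every NETs-treated ratio was under every control ratio (exact permutation p = 0.1, adjusted 0.114). The ratio of Zfp36 to Elavl1, by contrast, was 1.19, 0.956 and 0.657 in NETs-treated samples, against 1.44, 1.22 and 1.18 in control samples, and these overlapped (exact permutation p = 0.2, adjusted 0.2). The size of each ratio to Elavl1 depends on the length used for it, here all annotated exons. With the longest coding transcripts, control samples had a mean of 29.4 TPM for Zfp36 and 33.3 TPM for Elavl1.

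Compared per length, the order of the 8 transcripts differed between the groups mainly through Zc3h12a and Zfp36l1. In NETs-treated samples Khsrp (104 ± 13.1 TPM) and Zfp36l2 (96.3 ± 9.81 TPM) led and did not differ beyond their spread, and Zc3h12a came next with 57.3 ± 8.90 TPM. Elavl1 (41.1 ± 4.44 TPM), Zfp36 (37.8 ± 8.34 TPM) and Rc3h1 (35.2 ± 3.16 TPM) followed within their spread. Zfp36l1 (13.6 ± 0.578 TPM) and Zc3h12c (13.6 ± 2.38 TPM) were lowest. In control samples Zfp36l2 (167 ± 4.90 TPM) stood above Khsrp (114 ± 2.56 TPM), followed by Zfp36l1 (37.4 ± 3.58 TPM) and Zfp36 (33.3 ± 4.23 TPM), which did not differ beyond their spread. Elavl1 (26.1 ± 0.789 TPM), Rc3h1 (18.2 ± 0.349 TPM) and Zc3h12c (17.5 ± 1.09 TPM) came next, and Zc3h12a was lowest with 10.1 ± 1.21 TPM. The level of Elavl1 depends on the length used, since its annotated exons sum to 10363 bases and its longest coding transcript has 5743. With the lengths of the longest coding transcripts Elavl1 came at rank 3 in both groups, at 52.9 ± 5.82 TPM in NETs-treated and 33.3 ± 1.01 TPM in control samples.

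The spread among the NETs-treated libraries moved with base composition. For the 4 genes whose exons had a GC content of 54.1% to 57.3% (Zfp36, Zfp36l2, Zc3h12a and Khsrp), the first NETs-treated library stood above the third by 0.31 to 0.64 on the log2 scale. For the 4 genes with 41.4% to 49.0% GC it stood below the third, by a log2 ratio of -0.50 to -0.08. Over all genes averaging 10 CPM or more, the median log2 ratio of these libraries was 0.22 in the tertile of highest GC and -0.23 in that of lowest GC. With a correction of each library for its GC trend, all 8 genes passed the test, against 55.5% of the 15253 tested genes with a GC value, and none of the 8 overlapped between the groups, against 64.3% of those genes without overlap. Zfp36 then rose by a log2 fold change of 0.46 ± 0.12 (edgeR adjusted p = 0.0119), Khsrp rose by 0.20 ± 0.05 (edgeR adjusted p = 0.0101) and Zc3h12c fell by 0.38 ± 0.08 (edgeR adjusted p = 0.00418). This correction was chosen after the data were seen, and the part of GC content in the group differences was not tested otherwise. The other 5 genes kept their calls, with Zc3h12a at 2.83 ± 0.11 and Zfp36l2 at -0.49 ± 0.05.

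**Figure D4:**
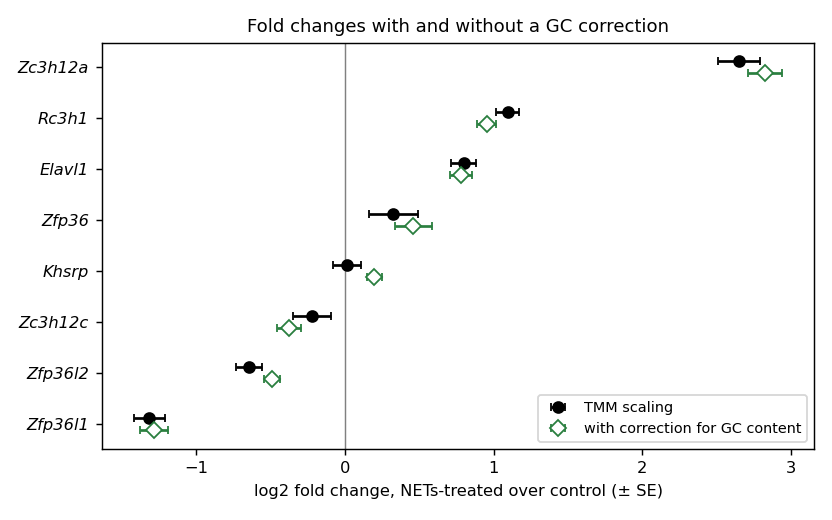
Points give the log2 fold change of each gene, NETs-treated over control, with its SE, with TMM scaling (filled) and with the correction for GC content (open). Zc3h12a, Rc3h1 and Elavl1 lie above 0 and Zfp36l1 and Zfp36l2 below 0 in both, while Zfp36, Khsrp and Zc3h12c lie nearest to 0.

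The genes whose profile over the 6 samples was most like that of Zc3h12a, by Euclidean distance between log2 CPM values centred on each gene's mean and among 5604 candidates, were Nfkbie (distance 0.196), Ier3 (0.271) and Dusp5 (0.333). Nfkbie, which encodes an inhibitor of NF-kB, had 27.4 ± 4.96 CPM in NETs-treated and 4.26 ± 0.623 CPM in control samples. For Zfp36l1 the nearest were Cenpf (0.0982), Serpinb8 (0.106) and Etv1 (0.114). Cenpf, a kinetochore protein of dividing cells, had 26.5 ± 0.498 CPM in NETs-treated and 66.2 ± 3.85 CPM in control samples. With 2 groups of 3 such a distance mainly reflects the size of the group difference.

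The machinery that these proteins recruit or answer to was followed in 6 lists with 107 genes, of which 100 were tested. Of these 46 rose, 26 fell and 28 did not pass, and the median log2 fold change was 0.20, against -0.02 over all tested genes. Over all tested genes 25.5% rose and 27.2% fell, and the counts of each list below stand beside these shares. No list was tested as a set. Of 19 deadenylation genes 11 rose and 4 fell, and the median was 0.46. The antiproliferative adaptors Btg2 and Btg1, which bind the CCR4-NOT deadenylases, had log2 fold changes of 1.59 ± 0.09 and 1.36 ± 0.06, with Btg1 at 323 ± 2.06 CPM in NETs-treated and 126 ± 1.94 CPM in control samples. Noct, a member of the same nuclease family as the CCR4 enzymes, also rose (1.28 ± 0.09). The poly(A)-specific ribonuclease Parn fell, with 22.9 ± 1.78 CPM in NETs-treated and 50.3 ± 2.22 CPM in control samples, and so did the deadenylase subunit Cnot6l (log2 fold change -0.79 ± 0.11).

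Of 20 genes of decapping and 5′-3′ decay 8 rose and 4 fell, and the median was 0.05. Lsm1, a subunit of the ring that marks deadenylated mRNA for decapping, rose, with 29.5 ± 0.957 CPM in NETs-treated and 18.5 ± 0.960 CPM in control samples. The scavenger decapping enzyme Dcps and the ring subunit Lsm6 fell, with log2 fold changes of -0.90 ± 0.12 and -0.76 ± 0.17. Lsm5 rose by 1.03 ± 0.29 (edgeR adjusted p = 0.0172), but lost its call without the second NETs-treated library (0.0639), without the third control library (0.0628) and with the GC correction (0.086).

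Of 17 exosome and SKI genes, which degrade mRNA from the 3′ end, 3 rose and 9 fell, and the median was -0.24. The nucleases Dis3l and Dis3l2 fell (log2 fold change -1.19 ± 0.10 and -0.84 ± 0.18), as did the core subunit Exosc7, with 14.1 ± 0.537 CPM in NETs-treated and 25.99 ± 1.80 CPM in control samples. Against the majority, Exosc4 rose by 0.57 ± 0.13. Exosc6 also passed, from 28, 10 and 21 counts in NETs-treated and 1, 1 and 1 count in control libraries, a ratio of 21.2 with an exact interval of 6.92 to 106 that covers counting error only. Its mean of 0.0228 CPM in control samples lay far under that of the next lowest Exosc subunit, Exosc3, at 11.4 CPM. Whether the reads of Exosc6 were fully counted was not tested.

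Among 19 tested genes of other AU-rich and stem-loop binders, 7 rose, 6 fell and the median was 0.05. Hnrnpd (AUF1), another AU-rich element binder linked to decay, fell to 20.5 ± 2.45 CPM in NETs-treated samples, against 61.6 ± 7.07 CPM in control samples. Hnrnpl and Hnrnpab also fell (log2 fold change -1.25 ± 0.08 and -1.20 ± 0.12). N4bp1, an RNase with a domain like that of the Regnases, rose by 0.83 ± 0.08. The neuronal Elavl paralogs Elavl2, Elavl3 and Elavl4, the placental Zfp36l3 and Zc3h12d did not pass the filter on low counts.

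The list around p38 and MK2, kinases whose action on TTP restrains it, also holds opposing phosphatases and the Ywha adaptors that bind phosphorylated TTP. Of its 15 tested genes 12 rose and 2 fell, with a median of 0.39. Of the 12, 6 encode kinases (Mapk11, Mapkapk3, Map2k3, Map2k6, Map2k4 and Map3k7), 2 phosphatases and 4 adaptors (Ywhab, Ywhaz, Ywhag and Ywhaq, log2 fold change 0.32 to 0.74). The phosphatases Dusp1, which switches p38 off, and Ppp2ca, the catalytic subunit of a phosphatase that dephosphorylates TTP, rose, with Dusp1 at 376 ± 18.2 CPM in NETs-treated and 121 ± 2.48 CPM in control samples. The p38 kinase Mapk11 rose by 1.89 ± 0.56 at a low level, 2.14 ± 0.739 CPM in NETs-treated and 0.578 ± 0.363 CPM in control samples, and lost its call without the first NETs-treated library (edgeR adjusted p = 0.053). The upstream kinase Map2k4 rose by 0.74 ± 0.08. MK2 itself, Mapkapk2, had 250 ± 16.4 CPM in NETs-treated and 302 ± 11.7 CPM in control samples (log2 fold change -0.27 ± 0.07, edgeR adjusted p = 0.0106). It lost its call without the second NETs-treated library (edgeR adjusted p = 0.0505) and with the GC correction (log2 fold change -0.08, edgeR adjusted p = 0.173), and the call of Mapkapk5 (-0.47 ± 0.16, edgeR adjusted p = 0.0312) was lost in 6 of the alternatives. Without the second NETs-treated library, and with the GC correction, 0 genes of this list were lower.

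Of 10 genes that act on Regnase-1 or with it, 5 rose, 1 fell and the median was 0.32. Tbk1, a kinase of the IKK family, rose to 112 ± 6.50 CPM in NETs-treated samples, against 55.8 ± 2.88 CPM in control samples. Bcl10, a partner of the protease that cleaves Regnase-1, rose by 0.78 ± 0.08, and Upf1, the helicase that works with Regnase-1, by 0.69 ± 0.12. Irak1, a kinase upstream of Regnase-1 phosphorylation, fell to 48.3 ± 4.30 CPM in NETs-treated samples, against 117 ± 2.67 CPM in control samples.

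**Figure D5:**
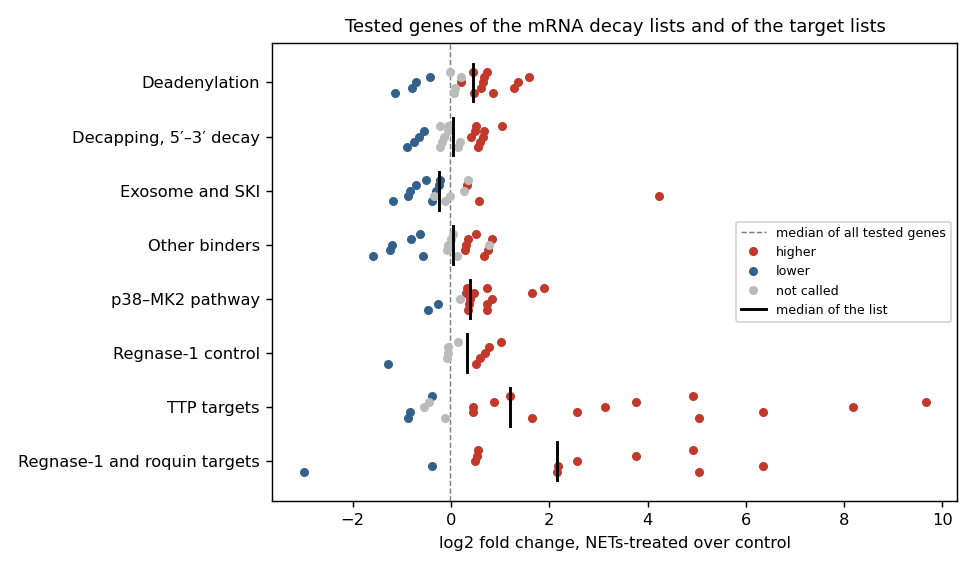
Points give the log2 fold change, NETs-treated over control, of every tested gene in 6 lists of the decay machinery and 2 lists of known targets (red higher, blue lower, grey not called), black ticks the median of each list and the dashed line the median of all tested genes. The list medians run from -0.24 for the exosome and SKI genes to 2.17 for the targets of Regnase-1 and roquin.

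Known targets were read as levels, in 2 lists that share members and were chosen with results of these data known. Of 19 tested TTP targets 13 rose and 3 fell, with a median of 1.20. Of 12 tested Regnase-1 and roquin targets 10 rose and 2 fell, with a median of 2.17. The shares over all tested genes were 25.5% higher and 27.2% lower. Of the 25 tested targets in both lists together, 18 hold at least 1 copy of TATTTAT in the longest 3′ UTR. The motif was held by 14 of the 18 that rose, by 1 of the 4 that fell, which was Tnf, and by all 3 that did not pass. Over all tested genes with an annotated 3′ UTR 29.3% hold it, but TTP targets are bound through such elements. Of those that fell without a copy, Ccl2, Myc and Tnfrsf4 have longest UTRs of 275, 466 and 180 bases. Of those that rose without a copy, Plaur, Nfkbiz, Nfkbid and Lcn2 have 496, 1355, 559 and 232 bases. Whether the motif and the direction of change are linked was not tested. The largest rises were those of Csf3, with 709 ± 43.4 CPM in NETs-treated and 0.861 ± 0.421 CPM in control samples, and of Cxcl3, with 637 counts over the NETs-treated and 2 over the control libraries (ratio 344, exact counting interval 94.8 to 2846). Each holds 2 copies, and Il6, which rose by a log2 fold change of 3.77 ± 0.21, holds 1. Cxcl2 holds 7 copies, Ptgs2 6 and Il1b 3, and their log2 fold changes were 5.05, 4.93 and 6.36. Csf2 holds 9 copies and Il23a 5, and neither passed the test (log2 fold change -0.45 ± 0.70 and -0.55 ± 0.35, edgeR adjusted p = 0.618 and 0.215). Both were at low levels, where a change is hard to call. Csf2 had 10, 13 and 17 counts in NETs-treated libraries, against 23, 5 and 32 counts in control libraries. Il23a had 1.82 ± 0.783 CPM in NETs-treated and 2.67 ± 0.358 CPM in control samples.

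Tnf, the best studied target of TTP, holds 8 copies, 4 of them in the stretch printed above. It had 57.2, 46.8 and 40.8 CPM in NETs-treated samples, against 64.6, 64.9 and 60.9 CPM in control samples. All NETs-treated values were under the control values. The log2 fold change of -0.39 ± 0.12 passed the test (edgeR adjusted p = 0.0226), and lost its call without the second NETs-treated library and without the first or the second control library (adjusted p from 0.0708 to 0.079). The chemokine Ccl2, with no copy of the motif, fell to 162 ± 19.99 CPM in NETs-treated samples, against 297 ± 5.61 CPM in control samples. Myc, also without a copy, fell by 0.84 ± 0.21 on the log2 scale, with 3.55 ± 0.560 CPM in NETs-treated and 6.36 ± 0.971 CPM in control samples. Tnfrsf4, without a copy as well, had 4, 10 and 0 counts in NETs-treated libraries, against 55, 33 and 35 counts in control libraries. It fell by 3.00 ± 0.86 on the log2 scale, with a log2 fold change of -4.19 without the second and -2.43 without the third NETs-treated library, and its call was lost without the first control library (edgeR adjusted p = 0.0793).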

How the data were processed

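RNA-seq was run on 3 NETs-treated and 3 control samples, grouped by the treatment in the labels. Libraries were strand-specific, per the labels' protocols. HISAT2, DESeq2, mm10 and rn6 are named without roles, per the submitters' processing notes. Which program counted the reads, with which strand setting and gene models, is not given in the sources used here. The authors deposited raw counts per gene, a normalised signal (each deposited count over its sample's size factor, as checked on the values), and their own log2 fold changes with raw and adjusted p-values, in 1 table.

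The counts were tested here with edgeR 4.0.16 (R 4.3.3; quasi-likelihood, two-sided, TMM, minimum count 10, minimum total 15), which kept 15272 genes with 99.9% of counts. Genes under an adjusted p of 0.05 were called. The biological coefficient of variation was 18.5%, and replicates differed by more than sampling noise (chi-square per gene 7.99 to 56.4). Counting intervals are exact, at 95%, and cover counting error only, since reads copied by PCR are not separate molecules. The fit was also run on counts simulated from the levels and dispersions of these data, in which few genes were changed. It called 62.6% of the genes set to a 2-fold change, 30.2% of those set to a 1.5-fold change, and 3 of 14681 unchanged genes. The simulated counts held no GC trend between libraries. These rates therefore need not hold for the deposited counts, in which 52.7% of tested genes were called.

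TPM, GC content and UTRs came from GENCODE M21 (GRCm38), matched by unversioned ID for 55141 genes. The GC and length corrections used a lowess trend (span 0.3) per library as an offset. Alternatives were DESeq2 size factors, library size only, upper-quartile scaling, the DESeq2 1.42.0 Wald test, limma-voom (limma 3.58.1), 2 other filters, a replicate block, leaving out each sample, and the authors' deposited table. The genes and lists were chosen with earlier results of these data known. From each list, the text names up to 4 called genes by size of change, plus up to 2 called the other way. Like profiles were sought among called genes averaging 10 CPM or more (pseudocount 0.5) with a symbol that is no predicted gene, clone or pseudogene. Genes named outside this rule, among them Csf2, Il23a, the Ywha genes, Mapkapk3, Map2k3, Map2k6, Map3k7 and the markers, were chosen after their values were seen.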

Additional observations from a re-analysis of the deposited data

How the results depend on the processing

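The calls of Zc3h12a, Rc3h1, Elavl1, Zfp36l1 and Zfp36l2 held in all 17 alternatives, with log2 fold changes of 2.54 to 2.83, 0.95 to 1.16, 0.73 to 0.87, -1.39 to -1.23 and -0.72 to -0.49. Zfp36 ranged from 0.16 to 0.48. It passed with the replicate block (0.31, edgeR adjusted p = 0.0307), with the GC correction (0.46) and without the third NETs-treated library (0.48), the other samples left out in turn giving down to 0.16 (adjusted p up to 0.306). The GC correction also took Zc3h12c (-0.38) and Khsrp (0.20) past the threshold, so that 5 of the 8 genes were higher, against 3 without it; the cause was not tested. Khsrp ranged from -0.06 to 0.20, below 0 with library size only and without the first NETs-treated or the second control library, and passed in none of these. Leaving out each sample in turn gave 2 to 5 target genes lower, the lowest without the first control library, and 3265 to 4137 genes higher and 3451 to 4360 lower. The list counts moved by over 1.5 times only where few genes were called: 5 exosome genes were higher without the first NETs-treated library, the lower p38-MK2 genes numbered 0 to 2, and the lower Regnase-1 and roquin targets 0 to 3. The same replicate numbers correlated with r = 0.38, 0.07 and 0.11 in their deviations over 9159 genes, and 2 of 6 samples correlated best with their own number, so the samples share only a number; the replicate block gave 3896 genes higher and 4209 lower. The authors' deposited table gave Zfp36 a log2 fold change of 0.32 (adjusted p = 0.0916). With 3 samples a group the exact permutation tests of the ratios cannot go below p = 0.1, or 0.2 with a sample left out.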

Other observations

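Across all 11741 tested genes with an annotated 3′ UTR, the group difference moved with the number of TATTTAT copies in the longest 3′ UTR. Of 8301 genes with no copy 25.5% were higher and 33.1% lower in NETs-treated than in control samples, with a median log2 fold change of -0.10. Of 2235 genes with 1 copy 33.7% were higher and 29.3% lower, and the median was 0.04. Of 756 genes with 2 copies 36.6% were higher and 26.7% lower, and the median was 0.11. Of 449 genes with 3 or more copies 39.0% were higher and 24.3% lower, and the median was 0.14.

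Other features moved with the number of copies. From no copy to 3 or more, the median UTR length went up from 841 to 3236 bases and the median GC content of the exons went down from 51.6% to 44.0%. After the GC correction the medians were -0.02, 0.04, 0.05 and 0.08 for 0, 1, 2 and 3 or more copies. Among genes with a UTR of 1 to 2 kb they were -0.04, 0.06, 0.04 and 0.06 without the correction, and 0.01, 0.03, 0.03 and -0.02 with it. Among genes with a UTR of 2 to 4 kb they were 0.01, 0.08, 0.11 and 0.12 without the correction, and 0.02, 0.04, 0.03 and 0.09 with it. These are descriptions over genes, which are not independent replicates, and the part of the motif itself was not tested.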
